A study of Mus musculus with 9 samples.

Results

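The class I MHC antigen presentation pathway was followed through 9 of its genes in an Rb-null line of mouse prostate epithelium and its wild-type counterpart: B2m, H2-K1, H2-D1, Tap1, Tap2, Tapbp, Psmb8, Psmb9 and Psmb10. All probe sets to which the platform annotation gives exactly 1 of these gene symbols were taken, which made 16 of the 12422 probe sets in the value table, for 9 of 8251 named genes. The genes had been chosen from earlier results of the same arrays, in which B2m and a list of interferon-stimulated and class I genes were higher in the Rb-null line. Differences between the lines are therefore given as a description without a p-value, and tests are given for serum withdrawal, which did not enter that choice. Of the 16 probe sets, 6 carry the suffix f for gene families and 1 the suffix r for relaxed design rules, so that they can hybridise to related transcripts. In 3 further probe sets a member is 1 of several listed genes, and these are described apart.

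Class I molecules show fragments of a cell's own proteins to CD8 T cells. Proteins are cut by the proteasome, whose catalytic subunits can be exchanged for the immunoproteasome subunits Psmb8, Psmb9 and Psmb10, and the peptides enter the endoplasmic reticulum through the Tap1-Tap2 transporter. Tapasin, the product of Tapbp, bridges the transporter to an empty heavy chain such as H2-K or H2-D bound to beta-2-microglobulin, the product of B2m, and a loaded complex leaves for the cell surface. Epithelial cells make class I molecules at a steady level, and interferon gamma is the best known inducer of nearly all the proteins named here.

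The Rb-null line is labelled Rb-/-, without a functional copy of the retinoblastoma gene Rb1, and the wild-type line is its control. Both grew in RPMI-1640 medium, either kept for 48 hours without fetal bovine serum (serum-free) or with 5% fetal bovine serum (serum). Rb-null cells had 2 arrays without serum and 2 in serum, and wild-type cells had 2 without serum and 3 in serum. Each genotype is 1 line, so that a genotype difference is one between these lines. Nothing in the labels ties the arrays of a group to different cultures or dishes, and p-values then measure only the spread between arrays, which may be technical.

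Median deposited intensity lay between 444.9 and 473.8 on the 9 arrays, whose number limits the precision of every value. Deposited Rb1 intensity, read as a check of the labels on probe set 97948_at, ran from 112 to 166 on the Rb-null arrays, against 361 to 713 on the wild-type arrays. The labels do not name the part of Rb1 that the allele lacks. One wild-type serum array, number 1, was unlike its group, with rank correlations of 0.974 and 0.969 to the other wild-type serum arrays, against 0.995 between those. Member results that rest on it are also given without it, while those of other single genes and marker sums are not. All 12 measured epithelial markers were above the floor (an intensity of 196.7, under which values are not told apart) on all 9 arrays. Of 14 measured leukocyte markers, 11 were above the floor on all 9 arrays, and 2, Ptprc and Lyz2, were under it on every array.

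In the 14 member probe sets that passed the filter on dim signals, serum withdrawal raised 3 and lowered none in Rb-null cells, and raised 7 and lowered none in wild-type cells. Of all 9686 tested probe sets, 7.5% rose and 6.42% fell in Rb-null cells, and 6.61% rose and 9.25% fell in wild-type cells. The wild-type count was 3 of 15 with the values as deposited and 2 of 14 with only the wild-type arrays in the fit. Differences below are log2, serum-free minus serum or Rb-null minus wild-type, unless a fold is named. Tap1 rose in both lines, Psmb8 and Psmb9 passed the test in Rb-null cells, and Tapbp, H2-D1 and H2-K1 passed it in wild-type cells. B2m did not pass in either line, while its intensity differed 3.98-fold between the lines. No member passed the test for a different response of the lines. The remaining 2 probe sets, 1 of H2-D1 and 1 of Tap1, were above the floor on 1 array each and were not tested.

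**Figure D1:**
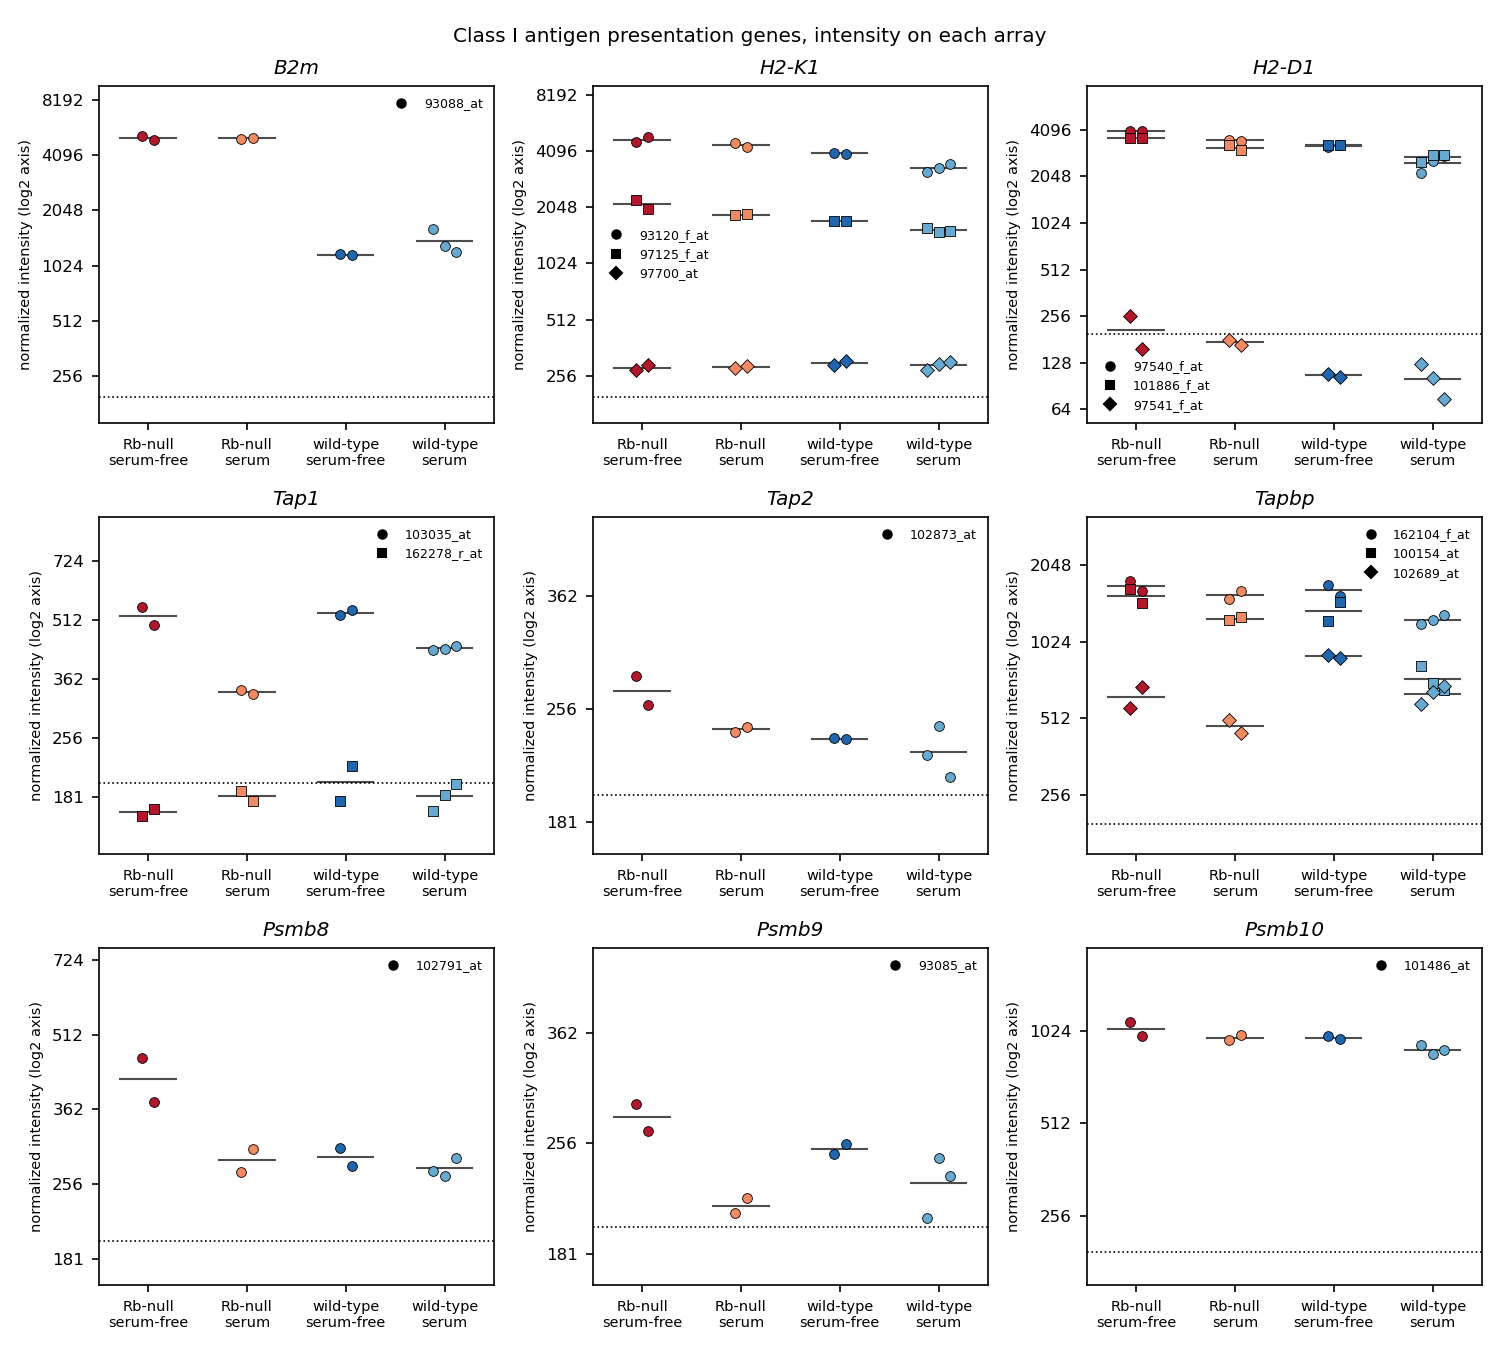
Normalized intensity (log2 axis) of all 16 member probe sets on each of the 9 arrays, 1 panel per gene, with groups along the horizontal axis. Points are arrays, short lines are group means, symbols mark probe sets and the dotted line is the floor; the 4 Rb-null arrays of B2m lie between 4926 and 5174, above all 5 wild-type arrays at 1165 to 1629.

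B2m encodes the light chain shared by all classical class I molecules. Its probe set 93088_at read 5174 and 4926 (normalized intensity, as all levels below) in Rb-null cells without serum and 5038 and 5075 in Rb-null cells in serum. Wild-type cells read 1185 and 1165 without serum and 1629, 1309 and 1220 in serum. All Rb-null arrays were above all wild-type arrays, and among the wild-type serum arrays the highest was wild-type serum 1.

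Group means of B2m were 5050 ± 175 without serum and 5057 ± 25.9 in serum for Rb-null cells (SD, n = 2 each), against 1175 ± 14.0 without serum (SD, n = 2) and 1386 ± 215 in serum (SD, n = 3) for wild-type cells. Averaged over the media the log2 difference between the lines was 1.99 (SE 0.08), or 3.98-fold. It was 2.10 (SE 0.12) without serum and 1.88 (SE 0.11) in serum, and 2.01 in serum without wild-type serum 1. Intensity of a whole culture cannot tell more transcript per cell from more cells that carry it. Serum withdrawal gave a log2 difference of -0.0024 in Rb-null cells (95% interval -0.27 to 0.27, limma adjusted p = 1) and of -0.23 in wild-type cells (-0.47 to 0.020, adjusted p = 0.217; -0.10 without wild-type serum 1).

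The stretch before the B2m start is shown because B2m is the member with the widest gap between the lines, and because its known enhancers lie there. It covers chr2:122147437-122147686 on the plus strand of GRCm38.p6 (RefSeq promoter table) and ends just before the annotated start. Capitals mark, in this order, a match to the interferon response element core AAANNGAAA, one to the NF-kB pattern GGGNNTTTC on the opposite strand, the cAMP response element core TGACG and a CCAAT box on the opposite strand.
B2m: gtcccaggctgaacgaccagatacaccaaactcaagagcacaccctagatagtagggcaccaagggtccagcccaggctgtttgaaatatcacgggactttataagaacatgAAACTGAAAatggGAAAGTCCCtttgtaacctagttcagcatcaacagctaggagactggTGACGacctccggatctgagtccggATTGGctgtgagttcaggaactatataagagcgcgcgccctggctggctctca

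In the same table, which holds 32817 windows of 300 bases (250 before to 50 after a start), AAANNGAAA occurred on either strand in 10.5% of windows and GGGNNTTTC in 4.36%. TGACG occurred in 20.8% and CCAAT in 37.4%. The E2F patterns TTTCGCGC and TTTGGCGC, the motifs of the factors that the retinoblastoma protein binds, were in 0.323% and 0.515% of windows and have no match in the B2m window. A match describes letters, not a bound site.

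H2-K1 and H2-D1 encode the classical heavy chains, the polymorphic part that holds the peptide. Probe set 93120_f_at of H2-K1 read 4583 and 4896 in Rb-null cells without serum, 4548 and 4307 in Rb-null cells in serum, 4013 and 3987 in wild-type cells without serum, and 3181, 3318 and 3519 in wild-type cells in serum. The groups stepped down in that order, and no Rb-null array overlapped a wild-type array. Its response to withdrawal was 0.10 (SE 0.07, adjusted p = 0.488) in Rb-null cells and 0.26 (SE 0.06, adjusted p = 0.0222), a rise of 1.20-fold, in wild-type cells.

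The second H2-K1 family probe set, 97125_f_at, read 2253 and 1999.8 without serum and 1858 and 1884 in serum in Rb-null cells, against 1739.6 and 1733 without serum and 1582, 1511 and 1529.5 in serum in wild-type cells. Its groups lay in the same order. Withdrawal differences of 0.18 in Rb-null cells (adjusted p = 0.199) and 0.17 in wild-type cells (adjusted p = 0.157) did not pass. The H2-K1 probe set without a family suffix, 97700_at, was dim and level, with 9 arrays between 273 and 305, and its differences were -0.01 in Rb-null cells (adjusted p = 0.967) and 0.04 in wild-type cells (adjusted p = 0.734).

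For H2-D1, 97540_f_at read 4017 and 4027 in Rb-null cells without serum, 3546 and 3487 in Rb-null cells in serum, 3176 and 3253 in wild-type cells without serum, and 2143, 2594 and 2790.4 in wild-type cells in serum. Here too the serum-free arrays lay above the serum arrays within each line, and wild-type serum 1 was the lowest of all. The response was 0.19 (SE 0.11, adjusted p = 0.341) in Rb-null cells and 0.37 (SE 0.10, adjusted p = 0.035) in wild-type cells. Without wild-type serum 1 these were 0.19 (adjusted p = 0.0326) and 0.26 (adjusted p = 0.00903), so that both then passed. The wild-type call was lost under 10 of 17 alternatives, among them the values as deposited (0.0673), no filter (0.102), only the wild-type arrays in the fit (0.164) and 7 omissions of another single array (adjusted p up to 0.201).

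The other bright H2-D1 probe set, 101886_f_at, read 3608 and 3601.5 without serum and 3253 and 3029 in serum in Rb-null cells, against 3269.9 and 3276 without serum and 2524, 2815 and 2826 in serum in wild-type cells. Both wild-type serum-free arrays were above both Rb-null serum arrays. Withdrawal gave 0.20 (adjusted p = 0.133) in Rb-null cells, which passed without wild-type serum 1 (adjusted p = 0.0237), and 0.27 (SE 0.07, adjusted p = 0.0285) in wild-type cells. The third, 97541_f_at, was too dim to test, with 257 and 156 without serum and 179.5 and 167 in serum in Rb-null cells, against 109 and 104 without serum and 125, 101 and 74.9 in serum in wild-type cells.

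Between the lines, the bright heavy chain probe sets differed by less than B2m. Averaged over the media the log2 differences were 0.33 (SE 0.05) and 0.29 (SE 0.05) for the H2-K1 family probe sets, -0.05 (SE 0.05) for 97700_at, and 0.41 (SE 0.07) and 0.17 (SE 0.05) for the H2-D1 probe sets. The 4 probe sets above 0 carry the family suffix, which allows other class I transcripts to hybridise, and are also the brighter ones. Since 97700_at read only 273 to 305, suffix and brightness cannot be told apart. The part of other transcripts in the difference was not tested. Of the 3 probe sets that list several class I genes, 2 (102161_f_at and 97174_r_at) were bright enough to test, and their means were 1633 and 555 in Rb-null cells without serum, 1278 and 506 in Rb-null cells in serum, 1289.6 and 577 in wild-type cells without serum, and 1056 and 561 in wild-type cells in serum.

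The H2-K1 and H2-D1 stretches are shown because the genes are near copies of each other and bright probe sets of both rose in wild-type cells. They cover chr17:34000348-34000597 on the minus strand, before the more upstream of the annotated H2-K1 starts, and chr17:35262844-35263093 on the plus strand (GRCm38.p6, RefSeq). Capitals mark the NF-kB pattern GGGNNTTCC, TGACG and CCAAT boxes on either strand.
H2-K1: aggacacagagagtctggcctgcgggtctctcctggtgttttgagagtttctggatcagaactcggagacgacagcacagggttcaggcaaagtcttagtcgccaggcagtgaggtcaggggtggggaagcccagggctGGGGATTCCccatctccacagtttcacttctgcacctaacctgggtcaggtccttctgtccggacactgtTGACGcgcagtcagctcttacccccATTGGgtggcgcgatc
H2-D1: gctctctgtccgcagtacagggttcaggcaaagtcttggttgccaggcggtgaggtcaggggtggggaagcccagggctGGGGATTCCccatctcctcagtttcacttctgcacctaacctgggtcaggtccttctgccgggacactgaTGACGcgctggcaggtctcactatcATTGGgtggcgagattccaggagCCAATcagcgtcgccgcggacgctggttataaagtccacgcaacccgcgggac

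Over the 239 aligned bases of the full windows, 211 were identical (88.3%). Both windows hold GGGGATTCC, a form of GGGNNTTCC (a pattern in 5.82% of all windows), followed by TGACG and a CCAAT box on each strand; in H2-K1 the last of these lies after the start used here. Neither holds an exact match to AAANNGAAA. Other forms of the interferon response element were not searched, so this does not show that the element is absent.

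Tap1 encodes a subunit of the peptide transporter. Probe set 103035_at read 552 and 499 in Rb-null cells without serum, against 340.0 and 332 in Rb-null cells in serum, and 528 and 543 in wild-type cells without serum, against 429.7, 433 and 439 in wild-type cells in serum. The serum-free groups of the lines overlapped, and the Rb-null serum arrays were the lowest of all. Tap1 rose on withdrawal in Rb-null cells by 0.64 (SE 0.08, adjusted p = 0.00113), or 1.56-fold, and in wild-type cells by 0.30 (SE 0.08, adjusted p = 0.0259), or 1.24-fold. The call in Rb-null cells held under every alternative setting run, with adjusted p up to 0.0233, while the call in wild-type cells was lost under 8 of 18, among them the values as deposited (0.0736), only the wild-type arrays in the fit (0.0652), the replicate block (0.0651) and 5 omissions of a single array.

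The difference between the responses of Tap1 was 0.34 (95% interval 0.083 to 0.60), with an unadjusted p of 0.015 and an adjusted p of 0.288. The second Tap1 probe set, 162278_r_at, lay between 162 and 218 on all arrays and was not tested. Tap2, the partner subunit, read 283 and 259 without serum and 239 and 243 in serum in Rb-null cells, against 234 and 233 without serum and 222, 243 and 208 in serum in wild-type cells. Its response was 0.17 (adjusted p = 0.249) in Rb-null cells and 0.06 (adjusted p = 0.622) in wild-type cells, close to the floor throughout.

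Psmb9 and Psmb8 replace constitutive catalytic subunits in the immunoproteasome, and both lie beside the Tap genes on chromosome 17. Psmb9 read 289.6 and 266 without serum, against 205 and 215 in serum, in Rb-null cells; in wild-type cells it read 248 and 256 without serum, against 202, 245 and 231 in serum. Its rise in Rb-null cells was 0.40 (SE 0.09, adjusted p = 0.0179), or 1.32-fold, and its difference in wild-type cells was 0.16 (adjusted p = 0.254). The lowest wild-type serum value was that of wild-type serum 1.

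Psmb8 read 459 and 374 in Rb-null cells without serum, against 271 and 301 in Rb-null cells in serum, and 302 and 278 in wild-type cells without serum, against 273, 266 and 288 in wild-type cells in serum. The Rb-null serum-free arrays stood above all the others. Psmb8 rose in Rb-null cells by 0.54 (SE 0.11, adjusted p = 0.01), or 1.45-fold, with 0.08 (adjusted p = 0.649) in wild-type cells. The test of the difference between the responses gave 0.46 (95% interval 0.13 to 0.79) with an unadjusted p of 0.0112 and an adjusted p of 0.245.

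The calls for Psmb8 and Psmb9 depended on single arrays and on the processing. Psmb8 was past the threshold neither without Rb-null serum 1 (adjusted p = 0.096), without Rb-null serum-free 1 (0.0623) nor with only the Rb-null arrays in the fit (0.0834). Psmb9 was past it neither without Rb-null serum 1 (0.132), without Rb-null serum 2 (0.087) nor without Rb-null serum-free 1 (0.124), nor with the values as deposited (0.0633) or no filter on dim probe sets (0.0585).

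Psmb10, the immunoproteasome subunit encoded outside the MHC region, read 1087.5 and 985 without serum and 955 and 989 in serum in Rb-null cells, against 982 and 958 without serum and 917, 860.2 and 888 in serum in wild-type cells. The groups were close together, and the responses of 0.09 in Rb-null cells (95% interval -0.11 to 0.29, adjusted p = 0.644) and 0.13 in wild-type cells (-0.052 to 0.31, adjusted p = 0.343) did not pass.

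Tap1 and Psmb9 are read from opposite strands with annotated starts 226 bases apart, so their windows share 275 bases, and the stretch before the Tap1 start is shown for both. It covers chr17:34187306-34187555 on the plus strand (GRCm38.p6, RefSeq). Capitals mark a CCAAT box, a GC box (GGGCGG, in 35.6% of windows) on the opposite strand, the E2F pattern TTTGGCGC and TGACG.
Tap1: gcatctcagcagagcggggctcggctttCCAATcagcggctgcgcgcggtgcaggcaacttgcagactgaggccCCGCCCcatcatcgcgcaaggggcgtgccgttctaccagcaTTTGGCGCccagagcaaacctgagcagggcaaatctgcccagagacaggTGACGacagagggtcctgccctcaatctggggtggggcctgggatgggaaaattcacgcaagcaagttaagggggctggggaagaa

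Among the 8 members with a window in the table, the E2F patterns matched in that of Tap1 and Psmb9. The windows of Psmb8 and Psmb10 held none of the motifs searched. Tap1 and Psmb9 were both past the threshold in Rb-null cells on withdrawal, and so was Psmb8, whose window held no motif. Between the lines, Tap1 and Psmb9 differed by -0.37 (SE 0.08) and -0.10 (SE 0.08) in serum. Without serum they differed by -0.03 (SE 0.08) and 0.14 (SE 0.09). A link between the motifs and these values was not tested.

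Tapbp encodes tapasin, the loading chaperone, and is covered by 3 tested probe sets. Probe set 100154_at read 1657.5 and 1455 in Rb-null cells without serum, 1244 and 1282 in Rb-null cells in serum, 1235 and 1469.8 in wild-type cells without serum, and 824, 704 and 664 in wild-type cells in serum. The wild-type serum arrays were below all others. Tapbp rose on withdrawal in wild-type cells by 0.89 (SE 0.12, adjusted p = 0.000986), or 1.85-fold, and this call held under every alternative setting run, with adjusted p up to 0.0262. In Rb-null cells the difference was 0.30 (SE 0.13, adjusted p = 0.191).

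The difference between these responses on 100154_at was -0.59 (95% interval -0.98 to -0.20, adjusted p = 0.218). Without wild-type serum 1 it was -0.68 (adjusted p = 0.038), the only member to pass in that setting. Probe set 162104_f_at read 1777 and 1616 without serum and 1513 and 1621 in serum in Rb-null cells, against 1718 and 1557 without serum and 1200, 1246 and 1307 in serum in wild-type cells. It gave 0.11 (adjusted p = 0.552) in Rb-null cells and 0.39 (SE 0.08, adjusted p = 0.0127) in wild-type cells.

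Probe set 102689_at of Tapbp read 561 and 678 in Rb-null cells without serum, 503 and 448 in Rb-null cells in serum, 906 and 888 in wild-type cells without serum, and 585 and 651 and 685 in wild-type cells in serum. It gave 0.38 (SE 0.12, adjusted p = 0.0759) in Rb-null cells, or 0.38 (adjusted p = 0.0236) without wild-type serum 1, and 0.49 (SE 0.11, adjusted p = 0.0164) in wild-type cells. The Tapbp probe sets thus had positive responses in both lines but opposite signs between the lines: averaged over the media, Rb-null minus wild-type was 0.50 (SE 0.09) on 100154_at and 0.19 (SE 0.06) on 162104_f_at, against -0.48 (SE 0.08) on 102689_at. The sources used here do not tell which transcript forms each probe set detects.

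The Tapbp stretch is shown because this gene had the largest withdrawal response among the members. It covers chr17:33919228-33919477 on the plus strand (GRCm38.p6, RefSeq), and capitals mark CCAAT boxes on the opposite strand and a GC box.
Tapbp: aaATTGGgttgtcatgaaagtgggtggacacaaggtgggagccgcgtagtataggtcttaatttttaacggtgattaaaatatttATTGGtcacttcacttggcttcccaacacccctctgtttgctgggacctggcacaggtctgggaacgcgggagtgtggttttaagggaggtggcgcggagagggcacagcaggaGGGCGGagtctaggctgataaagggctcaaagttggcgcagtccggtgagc

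**Figure D2:**
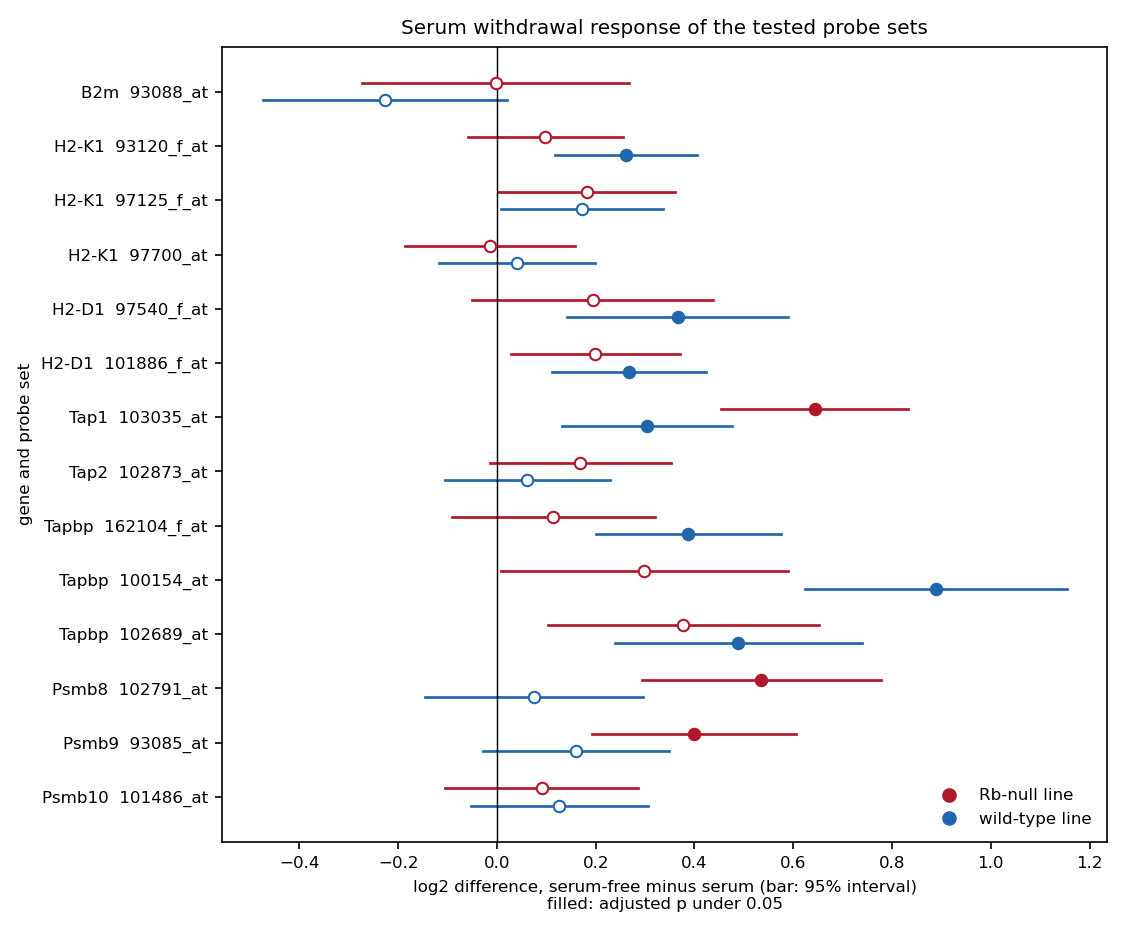
Serum withdrawal response (log2 difference, serum-free minus serum) of the 14 tested member probe sets in each line; bars are 95% intervals and filled points have an adjusted p under 0.05. Filled points are Tap1, Psmb8 and Psmb9 in Rb-null cells and 7 probe sets of H2-K1, H2-D1, Tap1 and Tapbp in wild-type cells, and B2m is open in both lines.

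Set against all 9686 probe sets tested, 3 of 14 members were higher on withdrawal in Rb-null cells where 7.5% of all were, and 0 were lower where 6.42% were. In wild-type cells 7 of 14 were higher where 6.61% of all were, and 0 were lower where 9.25% were. The member medians were 0.19 in Rb-null cells and 0.22 in wild-type cells, against 0.0002 and 0.05 over all probe sets. The probe sets are not independent, since 3 are of Tapbp and 4 of the heavy chains can detect each other's transcripts.

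In wild-type cells 7 of 14 also passed without wild-type serum 1, where 1963 of all 9654 probe sets did. Leaving out a wild-type serum-free array leaves 1 in that group, which is then assumed to vary like those of the other groups. Fewer members passed then, as did fewer of all probe sets, and only differences are given here. Without wild-type serum-free 1 or 2 they were 0.26 or 0.27 for H2-K1 93120_f_at and 0.38 or 0.35 for H2-D1 97540_f_at. For H2-D1 101886_f_at they were 0.27 or 0.26, for Tap1 0.33 or 0.29 and for Tapbp 102689_at 0.48 or 0.50. Tapbp 162104_f_at was 0.32 without wild-type serum-free 1, against 0.39 over all arrays. Over all alternatives, the wild-type call of H2-K1 93120_f_at was lost under 6 of 17 (adjusted p up to 0.191) and that of H2-D1 101886_f_at under 5 (up to 0.182). The call of Tapbp 162104_f_at was lost under 2, with 0.0511 for only the wild-type arrays in the fit. That of Tapbp 102689_at was lost under 3 of 18, with 0.0512 for no filter on dim probe sets. The other losses of both Tapbp probe sets came without a wild-type serum-free array. With the values as deposited, without scaling between arrays, 3 of 15 passed, where 1376 of all 9703 probe sets did. With only the wild-type arrays in the fit 2 of 14 did, where 768 of all 9686 did. In Rb-null cells the count was 6 of 14 without wild-type serum 1. Over all probe sets 2280 of 9654 passed then, against 1348 of 9686 with all arrays. Without Rb-null serum 1 or Rb-null serum-free 1, which leaves 1 array in a group, fewer members and fewer of all probe sets passed. Psmb8 was then 0.46 or 0.39, and Psmb9 was 0.37 or 0.34.

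For the difference between the responses, 0 of 14 members passed the limma test, while 0.454% of all probe sets were higher and 0.475% lower. At an unadjusted p under 0.05 there were 3 members, Tap1, Tapbp and Psmb8, where 10.9% of all probe sets were. The calls of Psmb8 and Psmb9 in Rb-null cells alone, and of H2-K1, H2-D1 and Tapbp in wild-type cells alone, are therefore not shown to differ between the lines.

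Between the lines, averaged over the media, 9 of 14 members were past the threshold as higher and 2 as lower in Rb-null cells, where 21.8% and 23.4% of all probe sets were. On 4 of 14, B2m with 2 of H2-K1 and 1 of H2-D1, every Rb-null array was above every wild-type array, as on 10.8% of all. In medium without serum the counts were 5 higher and 1 lower (16.8% and 13.9% of all), and in serum 6 higher and 2 lower (13.2% and 10.4% of all). Since the members were chosen by this contrast, nothing is read from these counts.

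For some members the gap between the lines had a different size in each medium. Psmb8 was 0.51 (SE 0.11) higher in Rb-null cells without serum and 0.05 (SE 0.10) in serum. Tapbp 100154_at was 0.20 (SE 0.13) higher without serum and 0.80 (SE 0.12) in serum, and Tap1 was -0.03 (SE 0.08) without serum and -0.37 (SE 0.08) in serum. The test of these differences is that of the unequal responses above, which none passed over all 9 arrays.

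**Figure D3:**
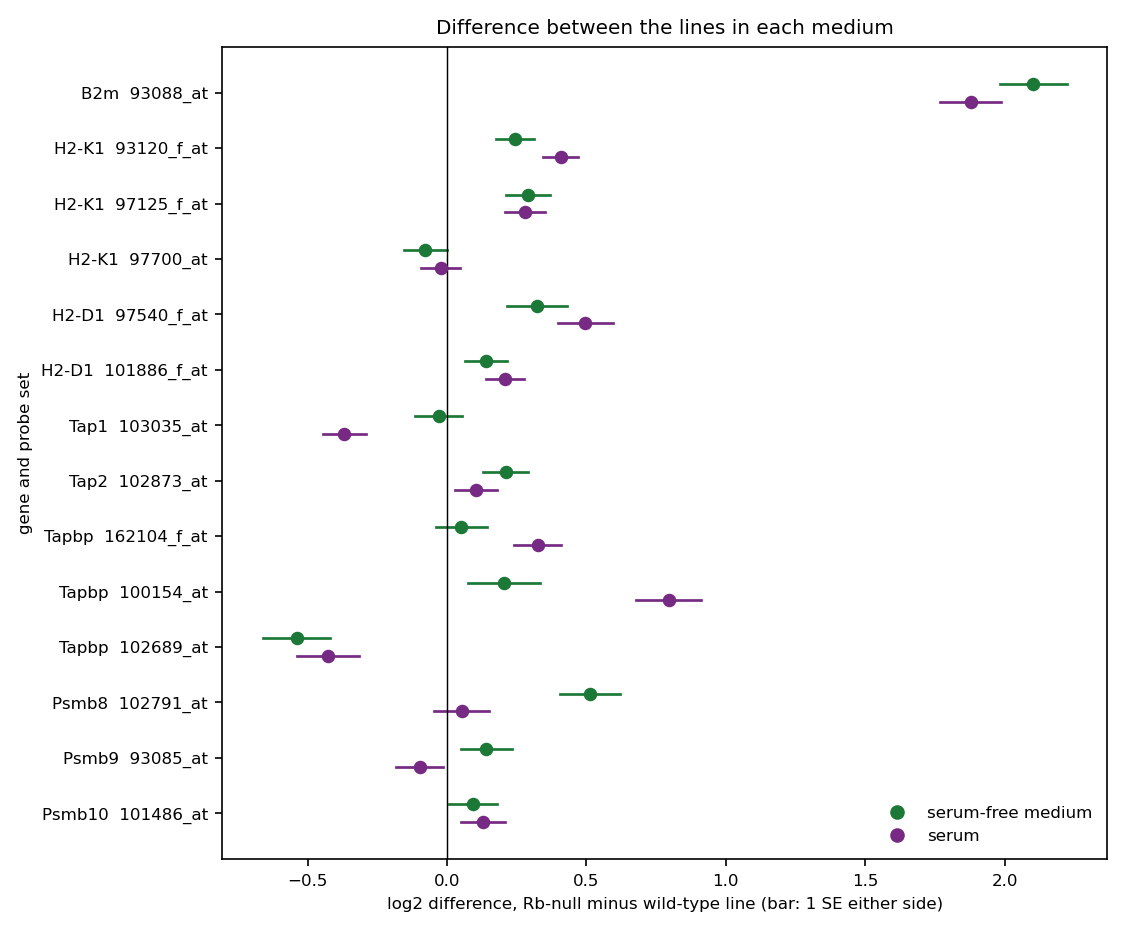
Difference between the lines (log2, Rb-null minus wild-type) of the 14 tested member probe sets without serum and in serum, with bars of 1 SE either side. B2m lies at 2.10 without serum and 1.88 in serum, Tapbp 102689_at lies on the wild-type side in both, and the other probe sets lie between -0.37 and 0.80.

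The 6 probe sets outside the pathway whose levels ran most closely with B2m over the 9 arrays, among 687 whose group means spanned at least 1 log2 unit, were those of Rad17, Grpel2, Park7, Slc20a1, Med10 and Cenpv, with Pearson r between 0.990 and 0.995. All 9 arrays fall into the same lines and media, so the likeness largely restates the gap between the lines, and no p is given. Rad17, a checkpoint protein, averaged 569 without serum and 600.2 in serum in Rb-null cells, against 236 without serum and 253 in serum in wild-type cells.

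Other genes of the pathway were counted by their brightest probe set. Of 14 tested other class I heavy chain and class I-like genes, 0 passed the limma test on withdrawal in either line, and their medians were -0.01 in Rb-null cells and 0.07 in wild-type cells. Of 11 tested genes for peptide supply and loading, 1 rose and 1 fell in Rb-null cells, and 1 rose and 0 fell in wild-type cells. Hsp90b1, an endoplasmic reticulum chaperone, fell by 0.29 (adjusted p = 0.00728) in Rb-null cells, where Nrd1, a peptidase, rose by 0.31 (adjusted p = 0.0405), and Npepps, a cytosolic aminopeptidase, rose by 0.41 (adjusted p = 0.00199) in wild-type cells.

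Of 7 tested proteasome activators and constitutive catalytic subunits, 0 passed in Rb-null cells, and 0 rose and 1 fell in wild-type cells, the assembly factor Pomp at -0.27 (adjusted p = 0.036). The constitutive subunits that Psmb8, Psmb9 and Psmb10 replace, Psmb5, Psmb6 and Psmb7, gave 0.04, 0.11 and -0.10 in Rb-null cells and -0.32, -0.10 and -0.13 in wild-type cells, none past the threshold. The activator subunit Psme1 gave 0.39 in Rb-null cells and 0.34 in wild-type cells, also not past it.

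Of 22 tested regulators of class I genes, 2 rose and 0 fell in Rb-null cells, and 3 rose and 0 fell in wild-type cells. Jak2, a kinase of the interferon gamma receptor, rose in both lines, by 0.51 (adjusted p = 0.0125) in Rb-null cells and 0.57 (adjusted p = 0.00415) in wild-type cells. Relb, an NF-kB subunit, rose by 0.50 (adjusted p = 0.00511) in wild-type cells, with -0.07 in Rb-null cells, and the difference between the responses did not pass (adjusted p = 0.123). The NF-kB subunit Rela rose by 0.38 (adjusted p = 0.0472) in Rb-null cells, and Socs1, an inhibitor of interferon signalling, by 0.33 (adjusted p = 0.0211) in wild-type cells.

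Of 23 tested interferon-stimulated genes outside the pathway, 2 rose and 3 fell in Rb-null cells (2 of the 3 only against the floor, as given below), and 1 rose and 1 fell in wild-type cells. The guanylate-binding protein gene Gbp2 rose by 0.51 (adjusted p = 0.00354) in Rb-null cells. Ifi202b read 727.5 to 765 in Rb-null cells without serum, against 354 to 374 in Rb-null cells in serum, and was under the floor on all wild-type arrays. The antiviral genes Ifit1 and Ifit2 were above the floor on the 2 Rb-null serum arrays only, so they passed the filter only through the group where they are high, and their differences of -0.24 and -0.25 are set by the floor. The chemokine gene Cxcl10 gave -0.48 in Rb-null cells, with serum-free arrays of 182 and 200.4 around the floor. In wild-type cells the antiviral membrane protein gene Ifitm3 fell by 0.34 (adjusted p = 0.00281) and Irgm1, an interferon-induced GTPase gene, rose by 0.40 (adjusted p = 0.0423). The median of the list was 0 in Rb-null cells and 0.07 in wild-type cells.

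Of 10 tested class II MHC genes, 0 passed the limma test on withdrawal in either line. Of 12 tested leukocyte markers 0 passed in Rb-null cells and 1 rose in wild-type cells, Cd14, a monocyte receptor also found on epithelia, by 0.26 (adjusted p = 0.0477). The summed level of the 14 measured leukocyte markers was 5775 to 5975 in Rb-null cells without serum and 5998 to 6129 in Rb-null cells in serum, against 6610.3 to 6816 in wild-type cells without serum and 5562 to 6485 in wild-type cells in serum. The wild-type sums were higher without serum than in serum, as were the 7 called member probe sets. The wild-type serum sums include wild-type serum 1 and are not given without it. The part of such markers in the member result was not tested. Of 7 tested fibroblast and smooth muscle markers and 6 tested endothelial markers, 0 passed the limma test on withdrawal in either line. Of 12 tested epithelial markers, 1 rose and 2 fell in Rb-null cells, Dsp by 0.58 and the luminal keratin genes Krt8 by 0.31 and Krt18 by 0.34, and 1 rose in wild-type cells, Dsp by 0.81; their part in the member results was not tested.

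**Figure D4:**
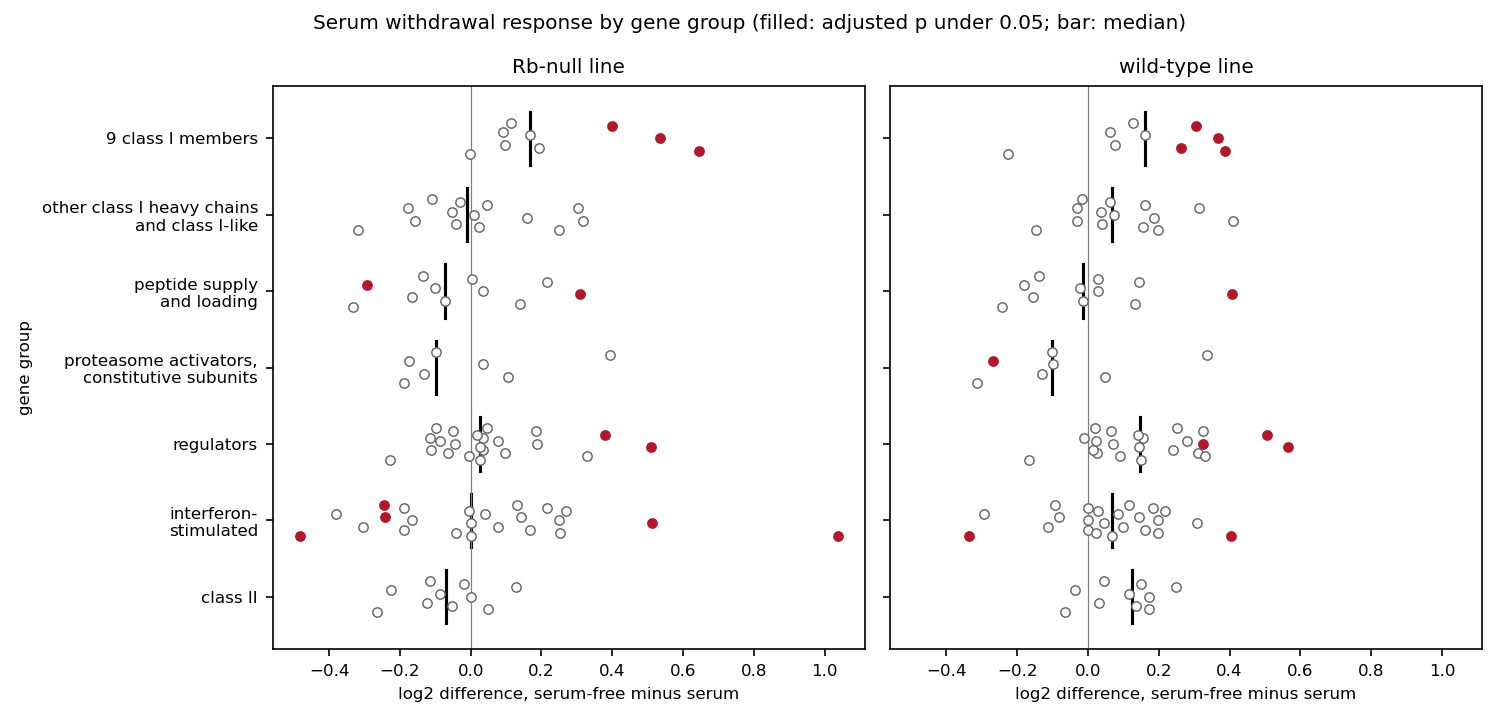
Serum withdrawal response (log2 difference, serum-free minus serum) of single genes in each line, grouped by role, with 1 point per gene, filled where the adjusted p was under 0.05, and a bar at each group's median. The 9 class I members have medians of 0.17 in Rb-null cells and 0.16 in wild-type cells, and the other class I heavy chains -0.01 and 0.07.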

How the data were processed

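The authors deposited 1 intensity value per probe set and array on a linear scale, for 9 single-channel arrays of total RNA, in the series' value table; the sources used here name neither the software nor the scaling behind them. Upper quartiles differed by 0.219 on the log2 scale between arrays, so the deposited intensity values were quantile normalized, raised to a floor at percentile 25 of all values (196.7) and taken to log2. A probe set was tested if at least 2 of the 9 arrays exceeded the floor, which left 9686 of 12422.

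A single limma 3.58.1 fit (R 4.3.3) of 4 group means with an intensity trend had 5 residual degrees of freedom and 4.20 prior ones. Two-sided p-values were adjusted over all 9686 probe sets (Benjamini-Hochberg), with a threshold of 0.05. The procedure was also run on simulated data with known changes, drawn independently for each array. No result here rests on that run. Gene symbols came from the platform annotation (10833 probe sets with 1 symbol, 396 with several, 1193 with none). Of 173 symbols on 10 lists, 29 had no match. Promoter windows, from RefSeq's table for GRCm38.p6, matched 8 of 9 members; H2-K1 and H2-D1 were aligned with Biopython 1.88.

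The members and lists were chosen with earlier results of these data known. Every member probe set is named. The rule also named, per list, up to 4 genes with the smallest adjusted p among those past the threshold on withdrawal and 4 by genotype difference; those by genotype are mostly not printed, Irgm1, Ifit1, Ifit2 and Psmb6 were added after their values were seen, and marker lists are given by counts. Alternatives changed the normalization, floor, filter, variance trend, arrays fitted, replicate block, suffix probe sets and single arrays.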

Additional observations from a re-analysis of the deposited data

Results flagged for a closer look

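Ifi202b, an interferon-inducible gene outside the pathway, had a difference between the withdrawal responses of 1.04 (log2, Rb-null minus wild-type, limma adjusted p = 0.00254). Only its 4 Rb-null arrays were above the floor, so the floor sets the wild-type response to 0, the difference is the Rb-null response over again, and the p says nothing about a response in wild-type cells. Values of single probe sets were not screened for outlying arrays within groups of 2 or 3.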

How the results depend on the processing

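On withdrawal in wild-type cells 7 of 14 tested member probe sets were past the threshold, as were 1536 of all 9686. With the values as deposited 3 of 15 members were, against 1376 of all 9703. With only the wild-type arrays in the fit 2 of 14 were, against 768 of all 9686. Without suffix probe sets 3 of 9 were, against 1335 of all 7777. In the last case fewer probe sets were tested, and for the others the cause was not tested. Between the lines averaged over the media, in serum and without serum, 11, 8 and 6 of 14 members were past the threshold. Without suffix probe sets 6, 4 and 3 of 9 were. Over all probe sets 4377, 2287 and 2971 of 9686 were, and without suffix probe sets 3607, 1945 and 2468 of 7777. The members were chosen by the difference between the lines, so nothing is read from their counts here. Leaving out a single wild-type serum array gave 10 to 11, 5 to 10 and 5 to 7 members for these 3 comparisons. It gave 3 to 6 on withdrawal in Rb-null cells, 4 to 7 in wild-type cells and 0 to 1 for the difference between the responses. Leaving out an array of another group leaves 1 there. No comparison then had more members past the threshold than with all arrays, and each had fewer of all probe sets. Over all probe sets the counts were 877 to 4376 between the lines in serum, 1159 to 4981 without serum, 497 to 2280 on withdrawal in Rb-null cells, 667 to 1963 in wild-type cells and 12 to 255 for the difference between the responses, the highest each time without wild-type serum 1. The last of these, 90, was 57 with the floor at percentile 10, 57 without the intensity trend and 51 with the replicate block; with only the arrays compared, 1505 of 2287 probe sets were called between the lines in serum and 768 of 1536 on withdrawal in wild-type cells.

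Over 12 same-numbered pairs of arrays r ran from -0.231 to 0.331 and was over 0.1 in 2. In a group of 2 the deviations from the group mean mirror each other. The pairs are therefore not independent, and whether replicate numbers pair the samples is not settled by them. With the replicate block Tap1 lost its call in wild-type cells (adjusted p = 0.0651), which left 6 members there, and the other withdrawal calls of members stayed. Reversed signs were all of uncalled values near 0. The Psmb10 difference between the responses was 0.0103 with the values as deposited. Leaving out single arrays gave -0.0734 to 0.0979 for H2-K1 97125_f_at, -0.249 to 0.022 for Tapbp 102689_at and -0.107 to 0.0339 for Psmb10 in that comparison, -0.037 to 0.033 for B2m and -0.0624 to 0.0335 for H2-K1 97700_at on withdrawal in Rb-null cells, and -0.0024 to 0.0748 for H2-K1 97700_at in wild-type cells.

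Scaling moved the share of higher among all called probe sets. Averaged over the media it was 48.1%, against 69.3% for deposited values and 60.7% for values scaled to a common median; in serum 55.9%, 73.4% and 68%, without serum 54.8%, 77.6% and 68.1%, and on withdrawal in wild-type cells 41.7%, 25.7% and 36.2%. Signals near the floor, as those of Tap2 and Psmb9, limit what these arrays can show.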
